A study of Homo sapiens with 18 samples.

Results

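The guanylate-binding proteins were followed in RNA-seq counts of THP-1, a cell line grown from a human monocytic leukaemia. The family was taken as the genes with the GENCODE 29 symbols GBP1 to GBP7, and all 7 were present among the 57500 genes counted. GBP1, GBP2, GBP3, GBP4 and GBP5 had enough reads to be tested with LPS, GBP1 fell under the low-count filter in the comparisons of lines without LPS, and GBP6 and GBP7 fell under it throughout.

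Stably transduced lines carried, by lentiviral delivery, a non-target hairpin (shNT), a hairpin against NR4A2 (shNR4A2) or a hairpin against NR4A3 (shNR4A3). Each line was left without stimulus (control) or given LPS (2.5 μg/ml, 2 h). This made 6 groups of 3 libraries, 18 in all, described as independent experiments. All lines, shNT included, were maintained under puromycin. There was 1 line per hairpin, so that an effect of knockdown and any other difference between the lines cannot be told apart. Counts on genes ran from 16171161 to 23929138 per library.

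The hairpin targets were read first, as a check of the labels. NR4A2 with LPS was 62.2, 74.7 and 51.3 TPM (transcripts per 1000000, the count divided by gene length and scaled to the same sum in each library) in shNT cells and 20.5, 28.3 and 14.8 TPM in shNR4A2 cells. NR4A3 with LPS was 30.9, 32.3 and 31.9 TPM in shNT cells and 17.0, 18.2 and 16.7 TPM in shNR4A3 cells. Without LPS, NR4A2 averaged 3.69 TPM in shNT and 1.95 TPM in shNR4A2 cells, and NR4A3 averaged 0.587 TPM in shNT and 0.0990 TPM in shNR4A3 cells. In all 4 comparisons the knockdown libraries lay below the shNT libraries, as labelled. Of 10 monocytic markers, all 10 were detected in every group, while CD3D, CD3E and CD2 of T cells summed to at most 0.644 TPM in any group mean and HBB and HBA1 of erythroid cells to at most 0.159 TPM. Summed markers of fibroblasts reached at most 0.787 TPM, of epithelium 1.98 TPM and of B cells 5.89 TPM, with MS4A1 at 0 in 4 of the 6 groups. Of the endothelial markers, VWF was at most 0.446 TPM and PECAM1, which monocytes also express, reached 268.6 TPM.

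Guanylate-binding proteins are large GTPases of the dynamin superfamily and among the most abundant products of interferon-stimulated cells. Interferon-gamma switches their genes on through JAK-STAT signalling and then through IRF1, by way of GAS and ISRE elements in their promoters, and type I interferon also acts on ISRE elements, with IRF9 as a subunit of the bound complex. In macrophages the proteins coat intracellular bacteria and parasites, and GBP1 binds bacterial LPS and gathers GBP2, GBP3 and GBP4 into a platform on which caspase-4 is activated. GBP5 is known for promoting inflammasome assembly and for lowering the infectivity of viral envelope proteins.

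The 7 genes form a single cluster on chromosome 1 that spans 379.796 kb (GRCh38, chr1:89006666-89386461). In order along the chromosome they are GBP3 (89006666 to 89022894), GBP1 (89052319 to 89065360), GBP2 (89106132 to 89150456), GBP7 (89131751 to 89176040), GBP4 (89181148 to 89198932), GBP5 (89258950 to 89272804) and GBP6 (89364058 to 89386461). GBP6 is on the plus strand and the other 6 on the minus strand. The annotated exons of GBP2 and GBP7 share 621 bases on the same strand, 9.89% of the GBP2 exon length and 25.3% of that of GBP7. The members are close paralogs, and how reads that fit several of them were counted is not given in the sources used here, so the split of reads among members is uncertain to that extent. The antisense gene AC099063.1 shares 324 exon bases with GBP5 and had 0 counts in all 18 libraries.

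Promoter windows in RefSeq (GRCh38.p14, from 250 bases before to 50 bases after the annotated start) were matched for 5 members, GBP1, GBP3, GBP4, GBP6 and GBP7, and are shown where they hold the core of the interferon-stimulated response element. The core was searched on both strands as GAAA, any 2 bases and GAAA again, and 3 of the 5 windows held it against 3.57% of all 35116 windows. Each sequence is written 5′ to 3′ on the gene's strand (minus), with the match, here on the opposite strand, in capitals.
GBP1: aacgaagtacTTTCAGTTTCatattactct
GBP3: aaagaagtacTTTCAGTTTCattaggctct
GBP4: gtgcatgtccTTTCAATTTCggttctcaca
They lie at chr1:89065316-89065345, chr1:89022845-89022874 and chr1:89198927-89198956. The letters in capitals are the same in GBP1 and GBP3, and those of GBP4 differ. Counted from the RefSeq start, the match ran from -127 to -118 in GBP1, from 3 to 12 in GBP3 and from -4 to 6 in GBP4.

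The GAS element was searched as TTCNNNGAA, which 7.66% of all windows hold, and was matched in GBP3 alone of the 5 (actgagtcacTTCCTTGAAagaagtactt, chr1:89022863-89022891, on the gene's own strand). The NR4A element NBRE was searched as AAAGGTCA, which 1.22% of all windows hold, and none of the 5 windows matched it. A κB element, present in 11.3% of all windows, was matched in GBP4 and GBP7. These are matches of letters in short windows and describe neither binding nor its absence.

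GBP5 and GBP3 were the most abundant members in unstimulated shNT cells. GBP5 was 8.56, 8.77 and 9.51 TPM and GBP3 was 8.22, 6.78 and 9.83 TPM in the 3 libraries. These ranges overlapped, and both genes lay above GBP4, which was 5.73, 3.57 and 5.34 TPM. GBP2 followed at 2.60, 2.06 and 2.24 TPM, below every library of GBP4. GBP1, the member that binds LPS, was barely detected, at 0.0704, 0.0834 and 0.114 TPM on 2, 2 and 3 counts. GBP6 had between 0 and 3 counts in any of the 18 libraries and GBP7 likewise between 0 and 3, at most 0.181 TPM for GBP6 and 0.277 TPM for GBP7. A count of 0 in a library allows up to 3, so no difference in either gene was detectable at this depth. These limits and the intervals in the text cover counting error and the spread of 3 libraries only.

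**Figure D1:**
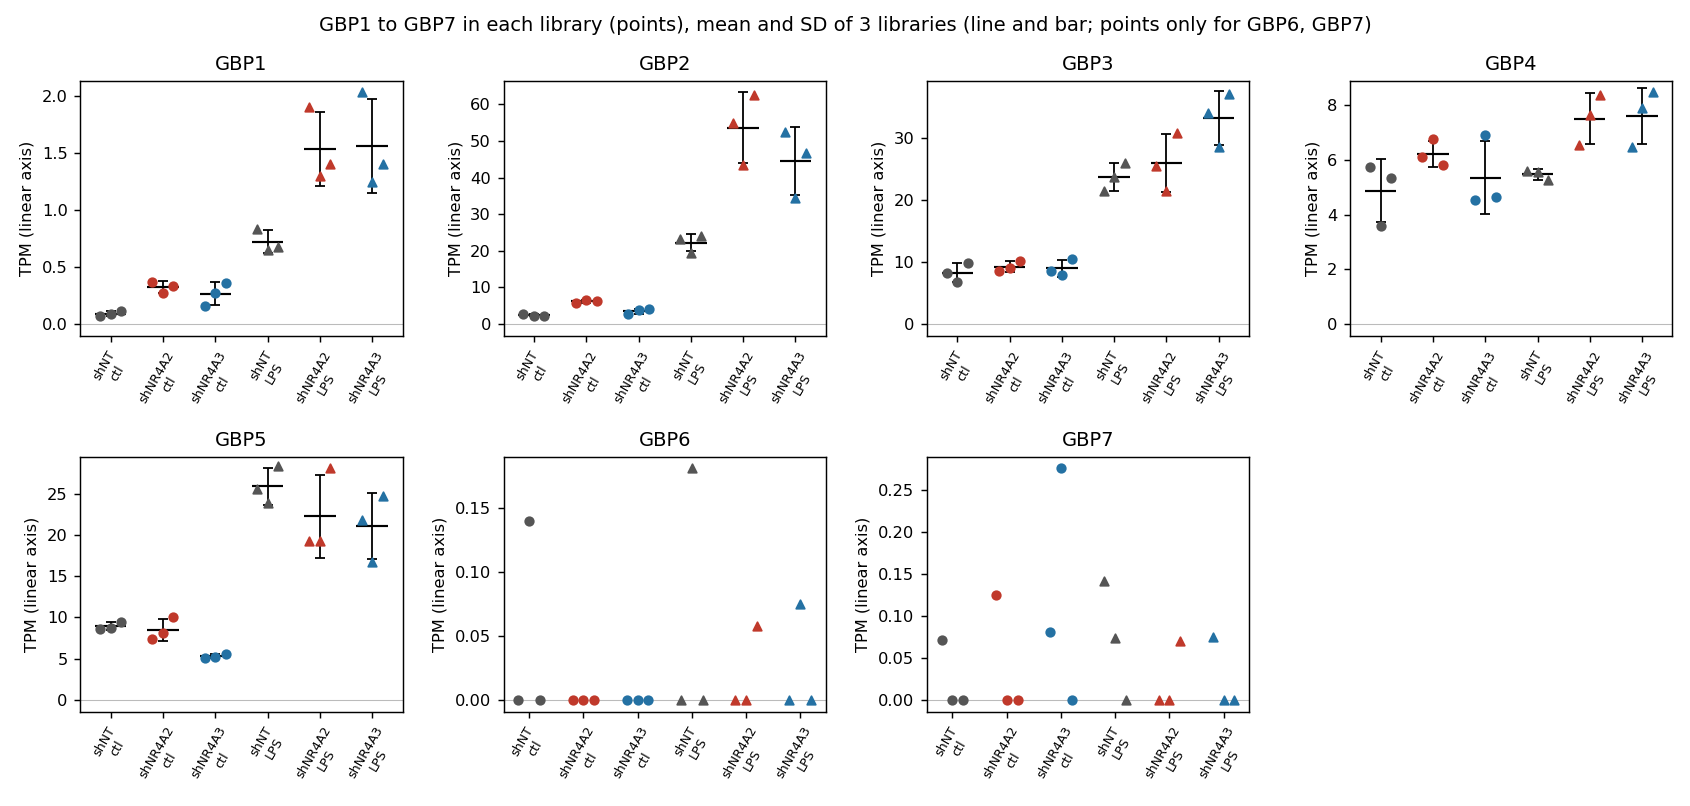
TPM (vertical axis, linear, a separate scale per gene) of GBP1 to GBP7 in the 18 libraries, with shNT in grey, shNR4A2 in red and shNR4A3 in blue, circles for control and triangles for LPS; lines and bars are the mean and SD of 3 libraries, left out for GBP6 and GBP7. GBP2 rises from between 2.06 and 2.60 TPM in shNT control libraries to between 19.5 and 24.0 TPM with LPS, and to between 43.3 and 62.6 TPM in shNR4A2 cells with LPS.

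LPS raised GBP1, GBP2, GBP3 and GBP5 in every line within 2 h, and of the 5 members tested GBP4 had the smallest fold change in each line. Of the 5 members tested, 4 were higher and 0 lower with LPS in shNT cells, where 11.6% of all genes tested were called higher and 13.3% lower (edgeR's quasi-likelihood test, Benjamini-Hochberg adjusted p under 0.05 over all genes). GBP1 is among the 4 and entered the test through its LPS libraries, as in the other lines. The tallies and medians of this paragraph include it on that basis. The median log2 fold change of the 5 members was 1.76, against -0.01 over all genes tested. In shNR4A2 cells 5 of 5 were higher, beside 9.23% of all genes called higher and 10.1% lower, and the members' median was 1.77 against -0.02 over all genes. In shNR4A3 cells 5 of 5 were again higher, beside 13.1% of all genes called higher and 15.0% lower, and the medians were 2.23 and -0.01.

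GBP2, which is recruited to bacteria and vacuoles after GBP1, had the largest fold change of the 5 members with LPS in each line by point estimate. In shNT cells the interval of the GBP1 fold covered the GBP2 fold. In shNT cells it was 2.60, 2.06 and 2.24 TPM without and 23.1, 19.5 and 24.0 TPM with LPS. The groups were far apart, and the log2 fold change of GBP2 was 3.49 (standard error, SE, 0.146, adjusted p = 3.73e-10 by edgeR). In shNR4A2 cells GBP2 went from 5.57, 6.53 and 6.29 TPM to 55.0, 43.3 and 62.6 TPM, a log2 fold change of 3.41 (SE 0.181, adjusted p = 4.04e-08). In shNR4A3 cells it went from 2.57, 3.71 and 3.97 TPM to 52.6, 34.4 and 46.6 TPM, a log2 fold change of 3.95 (SE 0.211, adjusted p = 1.81e-07). As linear folds by the fit, GBP2 rose 11.2-fold (95% interval 9.03 to 13.96) in shNT, 10.6-fold (8.09 to 13.95) in shNR4A2 and 15.4-fold (11.2 to 21.3) in shNR4A3 cells.

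GBP1 rose between 5.63-fold and 9.01-fold and stayed low in level. In these fits it passed the low-count filter through its LPS libraries, since it fell under that filter between lines without LPS. Its folds and calls against control are therefore given as description only. In shNT cells with LPS it was 0.838, 0.650 and 0.677 TPM on 24, 18 and 21 counts, above every control library. The fold by the fit was 9.01 with a 95% interval from 4.73 to 18.9, wide because the 3 control libraries held 7 counts together (log2 fold change 3.17, adjusted p = 0.000148 by edgeR). In shNR4A2 cells GBP1 went from 0.370, 0.267 and 0.330 TPM to 1.90, 1.299 and 1.40 TPM, a log2 fold change of 2.49 (SE 0.341, adjusted p = 0.000202). In shNR4A3 cells it went from 0.160, 0.272 and 0.359 TPM to 2.04, 1.25 and 1.41 TPM, a log2 fold change of 2.79 (SE 0.390, adjusted p = 0.000297). With LPS it remained the lowest of the 5 tested members in all 3 lines.

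GBP3, which joins the GBP1 platform, and GBP5, the inflammasome-linked member, rose between 3.18-fold and 4.69-fold. GBP3 in shNT cells went from 8.22, 6.78 and 9.83 TPM to 21.4, 23.7 and 26.0 TPM, a fold of 3.34 (95% interval 2.74 to 4.08, adjusted p = 3.33e-07 by edgeR). GBP5 in shNT cells went from 8.56, 8.77 and 9.51 TPM to 25.6, 23.9 and 28.4 TPM, a fold of 3.39 (95% interval 2.89 to 3.98, adjusted p = 2.69e-08). In neither gene did control and LPS libraries overlap in any line, which is given as description only. GBP3 rose 3.40-fold (95% interval 2.61 to 4.43) in shNR4A2 and 4.35-fold (3.41 to 5.55) in shNR4A3 cells, and GBP5 rose 3.18-fold (2.41 to 4.20) and 4.69-fold (3.66 to 6.01), all called by edgeR (adjusted p at most 3.53e-05).

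GBP4 is another platform member. In shNT cells it was 5.73, 3.57 and 5.34 TPM without and 5.60, 5.56 and 5.25 TPM with LPS, and the groups overlapped. Its log2 fold change of 0.38 (SE 0.163) was not called (adjusted p = 0.107 by edgeR). In shNR4A2 cells GBP4 went from 6.10, 6.75 and 5.83 TPM to 6.53, 7.65 and 8.37 TPM, a log2 fold change of 0.54 (adjusted p = 0.0336 by edgeR). In shNR4A3 cells it went from 4.52, 6.90 and 4.65 TPM to 6.48, 7.89 and 8.47 TPM, a log2 fold change of 0.74 (adjusted p = 0.00711). In both knockdown lines the TPM ranges overlapped despite the call. The mean TPM of GBP4 differed by a ratio of 1.21 and 1.42, where the folds fitted with TMM scaling were 1.45 and 1.68. The call in shNR4A2 cells was lost without the low-count filter (adjusted p = 0.0759) and with shNR4A2 control replicate 1 or 3 or LPS replicate 3 left out (adjusted p up to 0.127).

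**Figure D2:**
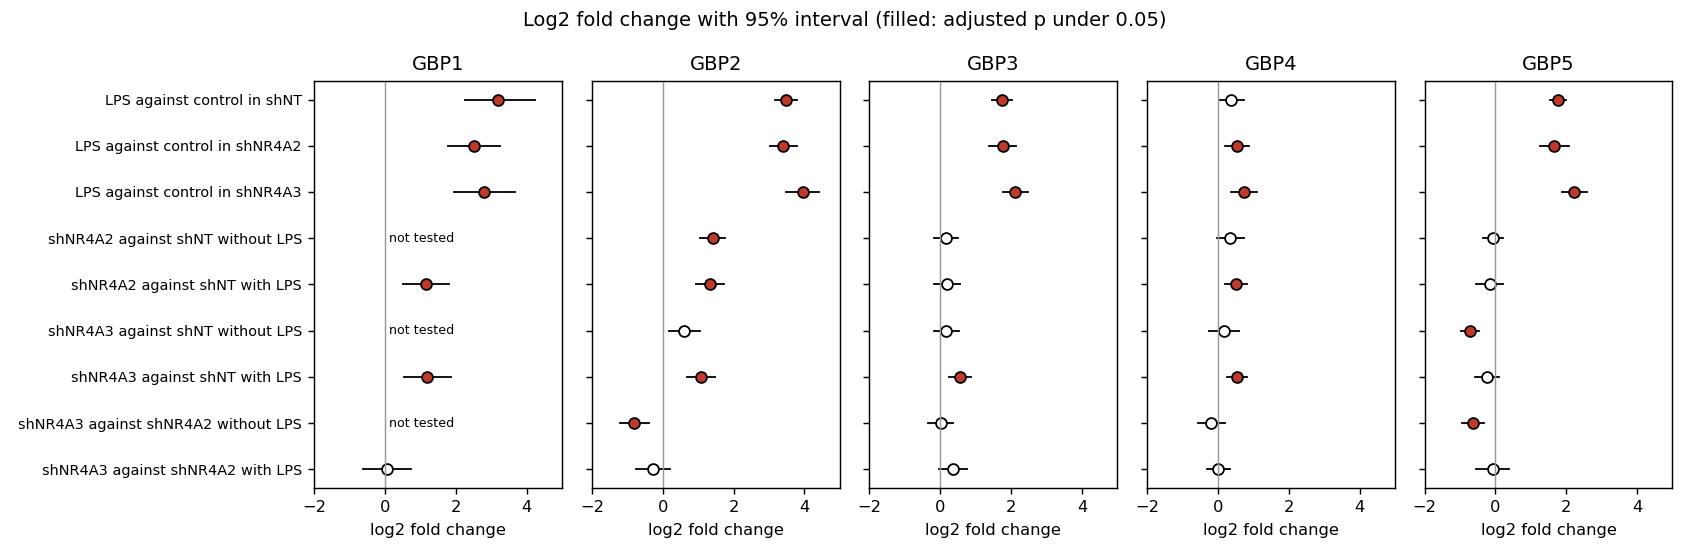
Log2 fold change (horizontal axis) of GBP1 to GBP5 in the 9 pairwise comparisons, with 95% intervals and filled points where the adjusted p by edgeR is under 0.05. With LPS in shNT cells, GBP1, GBP2, GBP3 and GBP5 are between 1.74 and 3.49 and GBP4 is at 0.38; between lines, GBP2 is above 0 in all 4 comparisons with shNT and called in 3.

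Whether the LPS response differed between lines was tested with the interaction of line and LPS in 12 libraries. No member was called in either interaction (0 of 5 each), beside 0.0% of all genes by edgeR in each, with 365 genes for shNR4A2 and 824 for shNR4A3 at an unadjusted p under 0.05; DESeq2 called 2 and 8 genes, none of them a member. The response of GBP2 differed from that in shNT cells by a log2 of -0.07 (95% interval -0.58 to 0.44) in shNR4A2 and 0.46 (-0.14 to 1.05) in shNR4A3 cells. GBP5 differed by -0.09 (-0.55 to 0.38) and 0.47 (0.04 to 0.89), the latter at an unadjusted p of 0.0343 and an adjusted p of 0.961 by edgeR. For GBP3 and GBP4 the shNR4A3 interactions were 0.38 (-0.08 to 0.84) and 0.36 (-0.16 to 0.88). For GBP1 the interactions were -0.67 (-1.97 to 0.52) and -0.38 (-1.84 to 0.98). GBP1 passed the low-count filter of these fits through its LPS libraries. Its values, and its place in the 0 of 5, are therefore given as description only.

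Without LPS, GBP2 alone was called higher in shNR4A2 than in shNT cells, 1 of 4 members tested and 0 lower, beside 3.63% of all genes called higher and 2.82% lower. GBP2 was 5.57, 6.53 and 6.29 TPM in shNR4A2 and 2.60, 2.06 and 2.24 TPM in shNT cells, with a clear gap between the groups. The log2 fold change was 1.41 (SE 0.163, adjusted p = 0.000516 by edgeR), a 2.66-fold difference (95% interval 2.08 to 3.41). The call was kept with each of the 6 libraries left out in turn (adjusted p up to 0.00315). GBP3 (0.16, adjusted p = 0.590), GBP4 (0.35, adjusted p = 0.279) and GBP5 (-0.07, adjusted p = 0.810) did not pass, with intervals from -0.16 to 0.49, from -0.03 to 0.74 and from -0.36 to 0.22.

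With LPS, GBP2 also stood above shNT in shNR4A2 cells. It was 55.0, 43.3 and 62.6 TPM against 23.1, 19.5 and 24.0 TPM, with no overlap. The log2 fold change of GBP2 was 1.33 (SE 0.171, adjusted p = 0.00279 by edgeR), and it was kept with each library left out (adjusted p up to 0.0176). In all, 3 of 5 members were called higher and 0 lower, beside 4.31% of all genes called higher and 2.65% lower, and the members' median log2 fold change was 0.52 against -0.00 over all genes.

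The other two calls in shNR4A2 cells with LPS were close to the limit. GBP1 was 1.90, 1.299 and 1.40 TPM against 0.838, 0.650 and 0.677 TPM, all above shNT, at a log2 fold change of 1.14 (SE 0.287, adjusted p = 0.0449 by edgeR). GBP4 was 6.53, 7.65 and 8.37 TPM against 5.60, 5.56 and 5.25 TPM, again all above, at a log2 fold change of 0.52 (SE 0.134, adjusted p = 0.0499). The call of GBP1 was lost with any library but shNR4A2 LPS replicate 2 left out (adjusted p up to 0.172), and that of GBP4 with any of the 6 left out (adjusted p up to 0.183) and without the low-count filter (adjusted p = 0.0603). With the replicate number as a block, which removes differences shared by libraries of one number, both calls were kept. The adjusted p by edgeR were then 0.00213 for GBP1 and 0.00099 for GBP4, in a fit that called 28.1% of all genes. GBP3 (0.19, 95% interval -0.17 to 0.56) and GBP5 (-0.16, -0.54 to 0.22) did not pass.

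In shNR4A3 cells without LPS the single call was in the other direction and in another member. GBP5 was 5.12, 5.20 and 5.60 TPM in shNR4A3 against 8.56, 8.77 and 9.51 TPM in shNT cells, a narrow range well below the shNT libraries. Its log2 fold change was -0.70 (SE 0.118, adjusted p = 0.00260 by edgeR), and the call was kept with each library left out (adjusted p up to 0.0157). Thus 0 of 4 members were higher and 1 lower, beside 3.91% of all genes called higher and 3.32% lower. GBP2 was 2.57, 3.71 and 3.97 TPM against 2.60, 2.06 and 2.24 TPM; replicate 1 fell among the shNT libraries, and the log2 fold change of 0.61 (SE 0.199) did not pass (adjusted p = 0.0875). With shNR4A3 control replicate 1 left out it was 0.76 and passed (adjusted p = 0.0434). GBP3 and GBP4, both at 0.17, did not pass either.

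GBP1 without LPS was under the filter in the comparisons of lines, and its values are given without a test of that kind. It had 2, 2 and 3 counts in shNT, 12, 7 and 10 counts in shNR4A2 and 4, 6 and 9 counts in shNR4A3 cells. Both knockdown groups lay above the shNT libraries in TPM (exact permutation test, 2-sided, p = 0.1 each, the smallest that 3 libraries against 3 allow). Fitted without a filter, the adjusted p of GBP1 was 0.160 for shNR4A2 and 0.459 for shNR4A3 cells by edgeR.

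With LPS, GBP1, GBP2, GBP3 and GBP4 were called higher in shNR4A3 than in shNT cells, 4 of 5 members tested and 0 lower, beside 3.99% of all genes called higher and 2.46% lower. The members' median log2 fold change was 0.55 against -0.01 over all genes. GBP2 was 52.6, 34.4 and 46.6 TPM against 23.1, 19.5 and 24.0 TPM, without overlap, at a log2 fold change of 1.07 (SE 0.176, adjusted p = 0.00730 by edgeR). It alone of the 4 was kept with each library left out (adjusted p up to 0.0373).

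GBP3 was 34.1, 28.6 and 37.2 TPM in shNR4A3 against 21.4, 23.7 and 26.0 TPM in shNT cells with LPS, a log2 fold change of 0.55 (SE 0.135, adjusted p = 0.0410 by edgeR). GBP1 was 2.04, 1.25 and 1.41 TPM against 0.838, 0.650 and 0.677 TPM, a log2 fold change of 1.18 (SE 0.297, adjusted p = 0.0444). GBP4 was 6.48, 7.89 and 8.47 TPM against 5.60, 5.56 and 5.25 TPM, a log2 fold change of 0.53 (SE 0.127, adjusted p = 0.0359). In TPM each of the 3 lay above the shNT libraries. This is description only, since the 3 were already called and the share of all genes so separated is not given here. The calls of GBP1 and GBP3 were each lost in 5 of 6 fits with a library left out, all but the one without shNR4A3 LPS replicate 2 (adjusted p up to 0.159 and 0.148). The call of GBP4 was lost without any shNT LPS replicate or without shNR4A3 LPS replicate 3 (adjusted p up to 0.150), so that the count of called members ran from 1 to 4. With the replicate block all 3 calls were kept, in a fit that called 21.8% of all genes. The adjusted p by edgeR were then 0.00773 for GBP1, 0.000664 for GBP3 and 0.00495 for GBP4.

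GBP5 did not follow the other 4 in shNR4A3 cells with LPS. It was 21.8, 16.8 and 24.8 TPM against 25.6, 23.9 and 28.4 TPM in shNT cells, and the ranges overlapped. Its log2 fold change was -0.23 (95% interval -0.58 to 0.11, adjusted p = 0.406 by edgeR). With the replicate number as a block, which removes differences shared by libraries of one number, GBP5 passed as lower (log2 fold change -0.25, adjusted p = 0.0332), beside 21.8% of all genes called in either direction.

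The shNR4A2 and shNR4A3 lines were also compared with each other, and these fits share libraries with those above. Without LPS, GBP2 and GBP5 were lower in shNR4A3 cells, 2 of 4 members and 0 higher, beside 1.14% of all genes called higher and 1.94% lower. GBP2 was 2.57, 3.71 and 3.97 TPM in shNR4A3 and 5.57, 6.53 and 6.29 TPM in shNR4A2 cells (log2 fold change -0.80, SE 0.184, adjusted p = 0.0340 by edgeR). GBP5 was 5.12, 5.20 and 5.60 TPM against 7.41, 8.10 and 10.0 TPM (log2 fold change -0.63, SE 0.147, adjusted p = 0.0356). Neither overlapped. The call of GBP2 was lost with any library but shNR4A3 control replicate 3 left out (adjusted p up to 0.131), and that of GBP5 with shNR4A2 control replicate 3 or any shNR4A3 control replicate left out (adjusted p up to 0.149).

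With LPS, no member was called between the knockdown lines (0 of 5 by edgeR and 0 by DESeq2, none of the 5 at an unadjusted p under 0.05), beside 1.06% of all genes called higher and 1.27% lower. GBP2 was 52.6, 34.4 and 46.6 TPM in shNR4A3 and 55.0, 43.3 and 62.6 TPM in shNR4A2 cells, overlapping ranges, at a log2 fold change of -0.27 (95% interval -0.74 to 0.21). GBP3 was at 0.36 (-0.05 to 0.76). With the replicate number as a block, a fit that called 23.6% of all genes, both passed, GBP2 as lower (-0.27, adjusted p = 0.0132) and GBP3 as higher (0.36, adjusted p = 0.00277) in shNR4A3 cells. In GBP2, each shNR4A3 library lay below the shNR4A2 library of the same number. GBP1 (0.04, -0.64 to 0.72), GBP4 (0.02, -0.31 to 0.34) and GBP5 (-0.08, -0.54 to 0.39) did not pass in either fit.

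The members' shares of the family's transcripts differed between groups, and are described here without a test. The TPM of the 7 genes summed to 24.6 ± 2.88 (SD, n = 3) in shNT, 30.5 ± 2.24 in shNR4A2 and 23.4 ± 2.20 in shNR4A3 cells without LPS. With LPS the sums were 78.2 ± 5.55 in shNT, 111.0 ± 19.4 in shNR4A2 and 108.2 ± 16.6 in shNR4A3 cells. GBP2 made up 9.40 ± 1.02% of the sum in shNT control libraries and 28.3 ± 1.84% with LPS. In shNR4A2 cells its share went from 20.1 ± 1.07% to 48.3 ± 2.22%, and in shNR4A3 cells from 14.5 ± 1.90% to 40.99 ± 3.42%. In neither condition did the GBP2 share of any 2 lines overlap. The GBP5 share of the control libraries was 36.7 ± 3.77% in shNT, 27.8 ± 2.46% in shNR4A2 and 22.7 ± 1.55% in shNR4A3 cells. With LPS it was 33.2 ± 0.594% in shNT, 20.05 ± 1.89% in shNR4A2 and 19.5 ± 1.24% in shNR4A3 cells. In both conditions each knockdown library lay below every shNT library. GBP4 made up between 19.7% and 22.9% of the sum in the control groups and between 6.87% and 7.18% with LPS.

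**Figure D3:**
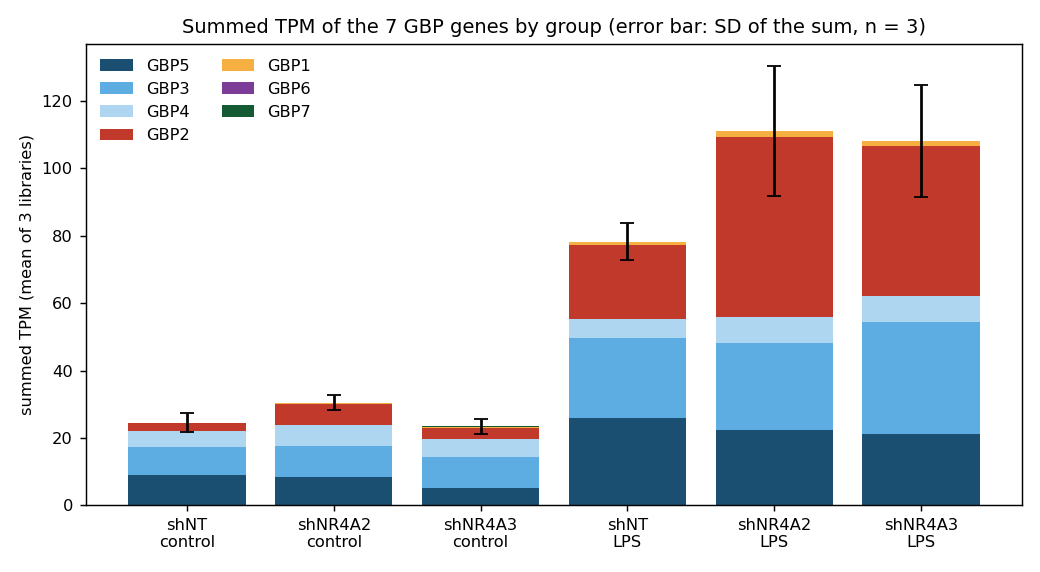
Mean summed TPM (vertical axis, from 0) of the GBP genes in each group, stacked by member, with the SD of the sum over 3 libraries. The sum is 24.6 TPM in shNT control and 78.2 TPM in shNT LPS libraries, and GBP2 (red) takes 48.3% of it in shNR4A2 cells with LPS.

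The order of the levels per length changed with it. In shNT cells with LPS, GBP5, GBP3 and GBP2 followed each other at means of 26.0, 23.7 and 22.2 TPM with overlapping libraries, ahead of GBP4 and GBP1. In shNR4A2 cells with LPS, GBP2 (mean 53.6 TPM) lay above every library of GBP3 (26.0 TPM), which overlapped GBP5 (22.3 TPM). In shNR4A3 cells with LPS, GBP2 (44.6 TPM) and GBP3 (33.3 TPM) overlapped, and GBP5 (21.1 TPM) lay below both. Without LPS, GBP3 led in shNR4A3 cells, and GBP4 and GBP5 overlapped behind it.

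Genes around the cluster were read in the same edgeR fits. GBP1P1, a transcribed pseudogene of GBP1 beyond GBP6, went from 0.299, 0.266 and 0.404 TPM to 4.00, 4.21 and 3.08 TPM with LPS in shNT cells (log2 fold change 3.71, SE 0.354, adjusted p = 2.84e-06 by edgeR). It was also called with LPS in shNR4A2 (2.73) and shNR4A3 cells (3.74), and reads could be split between it and GBP1. GBP1P1 had 12, 23 and 11 counts in the control groups of shNT, shNR4A2 and shNR4A3 cells, against 154, 117 and 143 with LPS. Like GBP1, it passed the low-count filter through its LPS libraries. Its folds and calls against control are therefore given as description only. On the GBP3 side RBMXL1 (0.76 in shNT cells) and GTF2B (0.54), a general transcription factor, were called higher with LPS in all 3 lines, while KYAT3 was not called and PKN2 was called in shNR4A3 cells alone (0.32). The exons of KYAT3 and RBMXL1 share 469 bases. On the far side LRRC8C, a subunit of volume-regulated anion channels, fell with LPS in all 3 lines (-1.05 in shNT cells), and LRRC8B and LRRC8D were not called.

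Between lines, 1 of 7 neighbours tested was called in each knockdown line without LPS, as higher, beside 3.63% of all genes called higher in shNR4A2 and 3.91% in shNR4A3 cells. LRRC8C was called higher without LPS in shNR4A2 (0.71) and shNR4A3 cells (0.86). LRRC8B was called lower with LPS in shNR4A2 cells (-0.59), 1 of 8 tested, beside 2.65% of all genes called lower. GBP1P1 was not called with LPS in shNR4A2 (-0.24) or shNR4A3 cells (0.09), and neither were PKN2, GTF2B, KYAT3, RBMXL1 and LRRC8D in any of the 4 comparisons with shNT by edgeR without a replicate block. DESeq2 called 2 of 7 neighbours in each line without LPS, and 1 of 8 in each line with LPS. Of all genes it called 1287 of 16017 in shNR4A2 and 1145 of 15103 in shNR4A3 cells without LPS. With LPS it called 1382 of 16862 and 1290 of 15289. With the replicate block 5 of 8 neighbours passed in shNR4A2 cells with LPS, 2 higher and 3 lower, where it called 28.1% of all genes, and 5 of 7 without LPS, 3 higher and 2 lower, where it called 23.6%. In shNR4A3 cells 2 were higher and 0 lower with the block in each condition, beside 14.8% of all genes without and 21.8% with LPS.

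**Figure D4:**
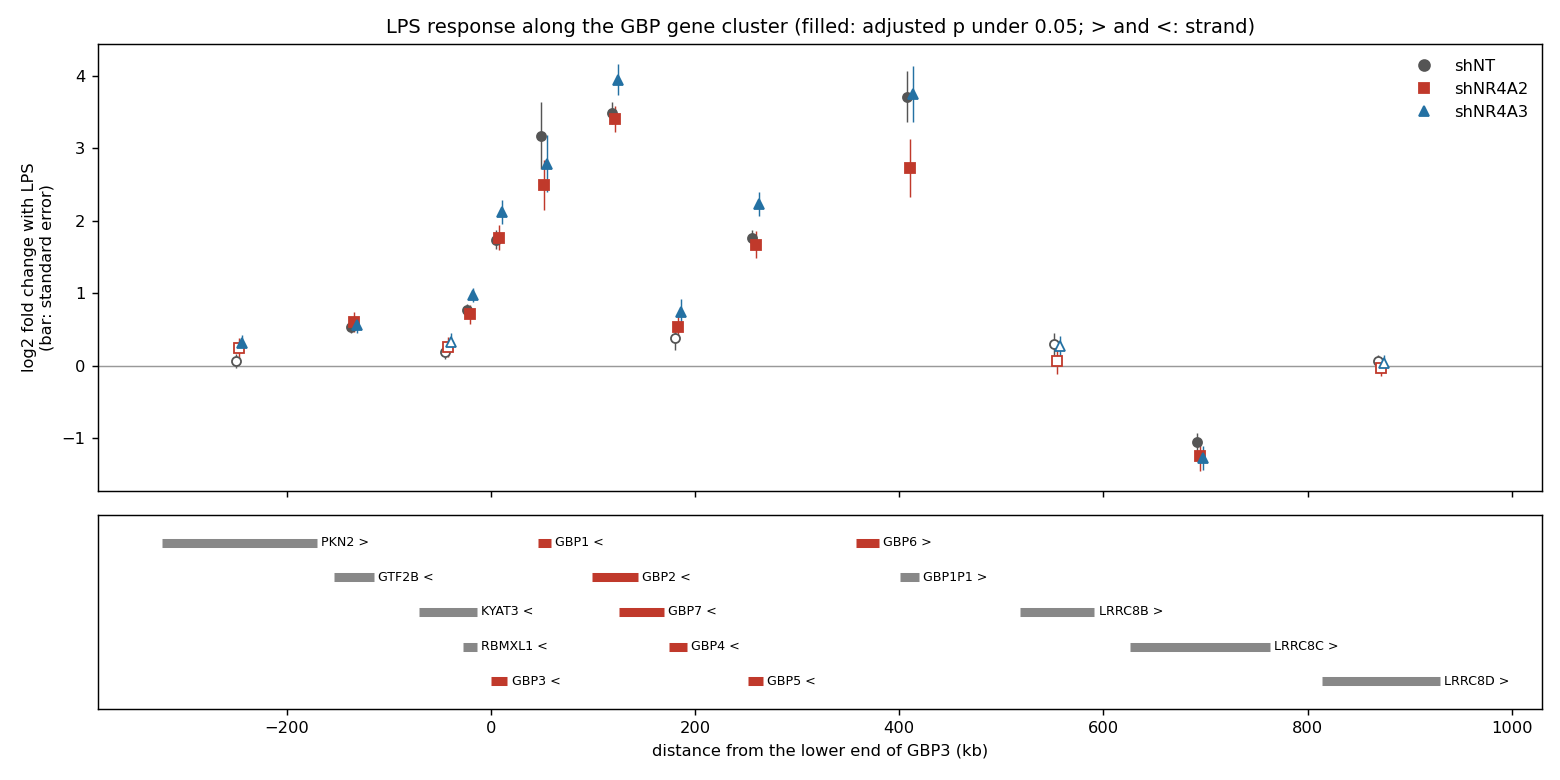
Log2 fold change with LPS (vertical axis, bars are standard errors, filled where called) against distance from the lower end of GBP3 in kb, with gene extents below (GBP members in red, neighbours in grey, > and < for strand); GBP6 and GBP7 have no point. In shNT cells GBP2 is at 3.49, GBP1P1 at 3.71 and LRRC8C at -1.05. GBP1 and GBP1P1 passed the low-count filter through their LPS libraries and are shown as description only.

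The inputs of GBP transcription were read from a list of 14 genes. IFNG, which encodes interferon-gamma, had 0 counts in all 9 control libraries and at most 3 counts in any LPS library. IFNB1, which encodes interferon-beta, had 0 counts in shNT control libraries and 2.03, 3.99 and 2.81 TPM with LPS on 10, 19 and 15 counts. With LPS in shNT cells 4 inputs were higher and 1 lower of 12 tested by edgeR (median log2 fold change 0.13), beside 11.6% and 13.3% of all genes, and DESeq2 called 3. IFNGR2, a subunit of the interferon-gamma receptor, rose by 1.46 (adjusted p = 9.36e-07 by edgeR), IRF9 by 0.58 and IRF1 by 0.44, and IRF2, a counterpart of IRF1, fell (-0.40).

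IRF1, the activator named above, was 23.8, 20.9 and 18.7 TPM in shNT control libraries and 26.5, 25.0 and 22.7 TPM with LPS, so the groups overlapped in TPM although the fit called it (adjusted p = 0.0107 by edgeR). With LPS it was 28.2, 34.6 and 29.5 TPM in shNR4A2 cells (log2 fold change against shNT 0.37, adjusted p = 0.0438) and 33.2, 35.6 and 34.2 TPM in shNR4A3 cells (0.53, adjusted p = 0.00517). Without LPS the differences of IRF1 from shNT, 0.27 in shNR4A2 and 0.32 in shNR4A3 cells, did not pass (0.345 and 0.159 after adjustment), and they did with the replicate block (adjusted p = 0.0198 and 0.0331).

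Other inputs differed between the lines as well, and over all genes tested the median log2 fold change lay between -0.02 and 0.01 in every comparison. With LPS, 5 of 13 inputs tested were higher and 0 lower by edgeR in shNR4A2 cells (median 0.13), beside 4.31% of all genes called higher, led by IRF8 (0.62), IFNGR1 (0.61), IFNGR2 (0.57) and IFNAR2 (0.53). In shNR4A3 cells with LPS 5 of 13 were higher and 0 lower (median 0.39), beside 3.99%, led by IRF8 (0.79), a monocyte lineage factor of the IRF family, IFNGR2 (0.64) and IRF9 (0.61). Without LPS, 2 of 12 were higher in shNR4A2 cells (median 0.14), IFNGR1 (0.61) and IFNAR2 (0.52), and 3 of 12 in shNR4A3 cells (median 0.30), IRF8 (0.65), IFNGR1 (0.59) and IFNAR2 (0.43), with none lower, beside 3.63% and 3.91% of all genes called higher. With the replicate block the inputs called without LPS came to 5 in shNR4A2 and 6 in shNR4A3 cells, all higher, beside 23.6% and 14.8% of all genes, and with LPS in shNR4A3 cells to 8, all higher, beside 21.8%.

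Further target genes of interferon-gamma and IRF1, 15 in the list, were read beside the GBP genes. With LPS in shNT cells 7 were higher and 2 lower of 14 tested by edgeR (median 0.39), beside 11.6% and 13.3% of all genes, among them the adhesion molecule ICAM1 (5.66). The chemokines CXCL9, CXCL10 and CXCL11 were also called higher. They had 1, 26 and 6 counts in the 3 shNT control libraries together, against 183, 7615 and 571 with LPS. They passed the low-count filter through their LPS libraries, and their fold changes are left out. The tally of 7 and the median include them and are given as description only. The fold of GBP1, on 7 such control counts, is likewise uncertain and was given above with its interval as description only. SERPING1, the C1 inhibitor of complement, and PSMB9, an immunoproteasome subunit, were higher in shNR4A2 than in shNT cells. They were called both without (1.87 and 0.56) and with LPS (1.66 and 0.51). These were 2 of 10 (median 0.34) and 2 of 14 tested (median 0.45) with none lower, beside 3.63% and 4.31% of all genes called higher. DESeq2 called 4 in each, beside 1287 of 16017 and 1382 of 16862 genes tested. In shNR4A3 cells ICAM1 (0.95), WARS (0.68), a tryptophan tRNA ligase, and APOL6 (0.43) were higher with LPS, 3 of 14 (median 0.49) with none lower, beside 3.99% of all genes called higher. Without LPS, WARS (0.54) was higher and CD40 (-0.71), a co-stimulatory receptor, lower in shNR4A3 cells, 1 each of 11 tested (median 0.24), beside 3.91% and 3.32% of all genes. With the replicate block the targets called with LPS came to 9 higher and 1 lower in shNR4A2 and 7 higher and 1 lower in shNR4A3 cells, beside 28.1% and 21.8% of all genes called under this fit. Without LPS they came to 5 higher in shNR4A2 cells, beside 23.6%.

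Of the 13 type I interferon targets, 7 were higher and 0 lower by edgeR with LPS in shNT cells (median 0.62), beside 11.6% and 13.3% of all genes, led by OASL (1.53), IFIH1 (1.37), IFIT2 (1.19) and IFIT3 (0.92). Against shNT with LPS, 9 of 13 were higher in shNR4A3 cells (median 0.92), beside 3.99% of all genes, led by IFI27 (2.11), IFIT2 (1.27), IFIT3 (1.24) and IFI44L (1.09). In shNR4A2 cells with LPS 0 of 13 were called by edgeR, beside 4.31% of all genes called higher and 2.65% lower. The median was 0.37, with 2 at an unadjusted p under 0.05, and DESeq2 called 0, beside 1382 of 16862 genes. With the replicate block 6 were higher and 1 lower, beside 28.1% of all genes. Without LPS, 5 of 13 were higher in shNR4A3 cells (median 0.49), beside 3.91% of all genes, among them IFI27 (2.22) and IFI44L (0.82), and 8 with the block, beside 14.8%. In shNR4A2 cells without LPS 0 of 13 were called by edgeR, beside 3.63% of all genes called higher and 2.82% lower. The median was 0.11, with 2 at an unadjusted p under 0.05, and DESeq2 called 0, beside 1287 of 16017 genes. With the block, which called 23.6% of all genes, 2 were lower. Between the knockdown lines directly, IFI27 and IFI6 were called higher in shNR4A3 cells without LPS and IFI27 with LPS, where 11 of 13 were higher with the block, beside 23.6% of all genes.

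**Figure D5:**
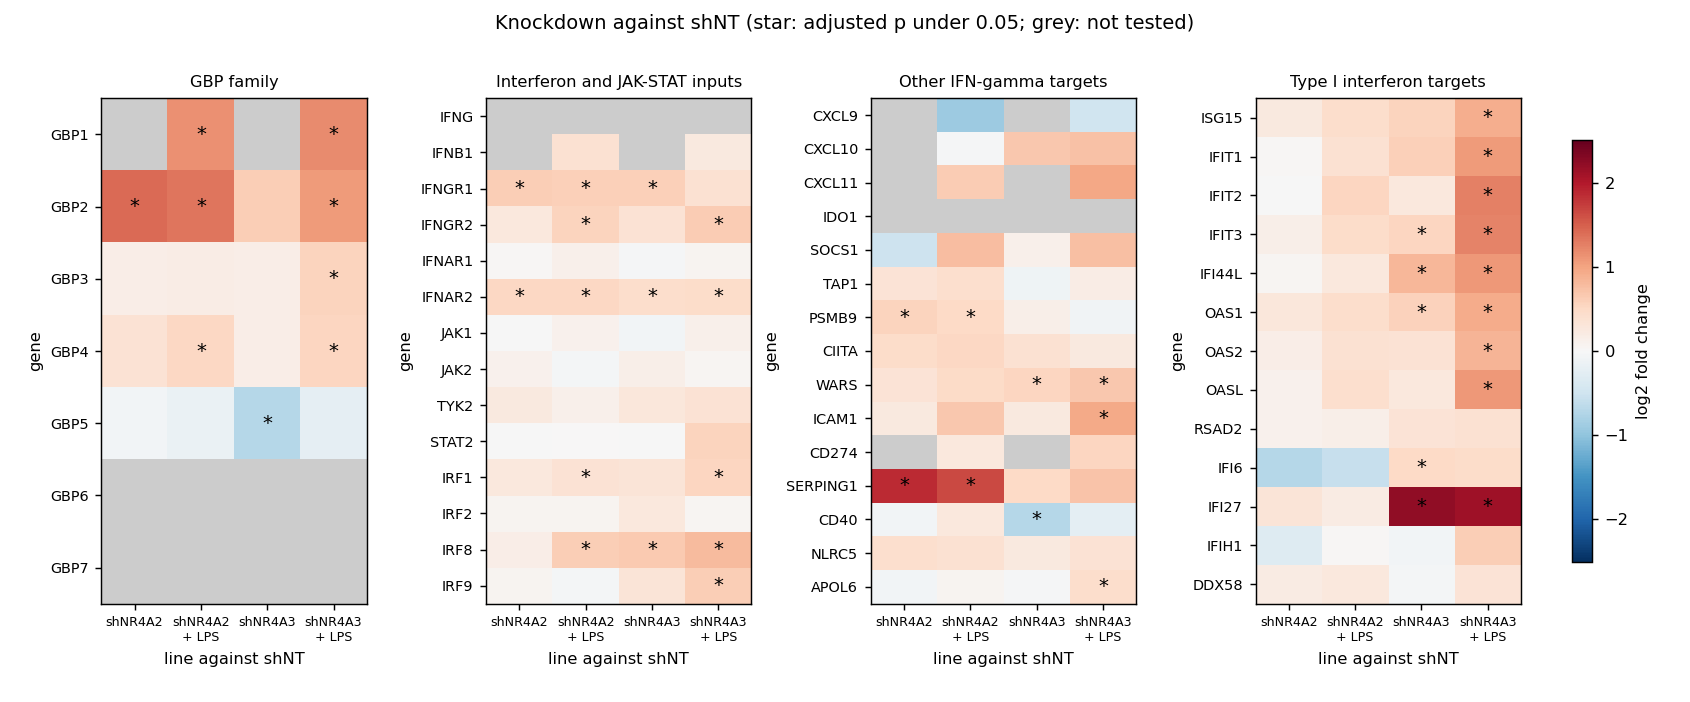
Log2 fold change of each knockdown line against shNT without and with LPS (colour, red higher and blue lower, stars where called, grey where not tested) for the GBP genes, the interferon inputs, further interferon-gamma targets and type I interferon targets. GBP2 is called in 3 of the 4 columns, and in the type I targets 9 stars stand in the column of shNR4A3 with LPS and none in the columns of shNR4A2. Of all genes 3.99% were called higher in shNR4A3 cells with LPS, and 3.63% and 4.31% in shNR4A2 cells without and with LPS.

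Of 12 genes that act with GBP proteins on LPS or in inflammasomes, IL1B (7.62), APOL3 (1.96), NINJ1 (1.86) and TLR4 (1.09) led 5 higher and 1 lower of 10 tested by edgeR with LPS in shNT cells, beside 11.6% and 13.3% of all genes. APOL3, which permeabilises bacterial membranes after GBP1 has opened them, was also higher with LPS in both knockdown lines, at 2.67, 1.98 and 3.42 TPM in shNR4A2 and 3.73, 2.38 and 3.41 TPM in shNR4A3 cells against 0.768, 1.25 and 1.12 TPM in shNT cells. The log2 fold changes of APOL3 were 1.43 and 1.67 (adjusted p = 0.0202 and 0.00595 by edgeR). It was the single gene edgeR called of 10 tested in shNR4A2 cells, beside 4.31% of all genes called higher, while DESeq2 called 5 and 8 were higher and 1 lower with the replicate block, beside 28.1% of all genes. In shNR4A3 cells with LPS CASP5 (2.57) and CASP1 (0.94), caspases of the non-canonical and canonical inflammasome, were higher too, 3 of 11 by edgeR with none lower, beside 3.99% of all genes (5 called by DESeq2 and 9 higher with the block, beside 21.8% of all genes). CASP5 rests on few reads, 3, 5 and 8 counts in shNT and 44, 8 and 33 counts in shNR4A3 libraries. It passed the low-count filter through the shNR4A3 libraries, where it was higher. Its call, and its place in the 3 of 11, are therefore given as description only. Without LPS CASP1 (0.43), NLRP3 (0.42) and PYCARD (0.36) were higher in shNR4A3 cells, 3 of 10 by edgeR, beside 3.91% of all genes (4 called by DESeq2 and 5 higher and 1 lower, IL1B, with the block, beside 14.8% of all genes), and 0 of 10 were called by edgeR in shNR4A2 cells (5 at an unadjusted p under 0.05, 1 called by DESeq2 and 5 higher with the block, beside 23.6% of all genes).

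Among 7 relatives of the family, other interferon-induced large GTPases and the atlastins, which shape the endoplasmic reticulum, 1 of 5 tested was called with LPS in shNT cells, ATL3 as lower (-0.48), beside 11.6% of all genes called higher and 13.3% lower. In shNR4A2 cells 0 of 6 were called with LPS by edgeR and 0 by DESeq2 (2 at an unadjusted p under 0.05). Beside this, edgeR called 9.23% of all genes higher and 10.1% lower. With the replicate block, which called 30.1% of all genes, ATL3 was lower (adjusted p = 0.0412 by edgeR). In shNR4A3 cells 4 of 5 were called, MX2 (0.53), MX1 (0.37) and ATL2 (0.31) as higher and ATL3 (-0.54) as lower, beside 13.1% and 15.0% of all genes. Against shNT, MX2 (0.67) and MX1 (0.46), antiviral dynamin-like GTPases, were higher with LPS in shNR4A3 cells, 2 of 5 by edgeR, beside 3.99% of all genes. ATL3 was higher in shNR4A2 cells without (0.52, 1 of 6) and with LPS (0.73, 1 of 5), beside 3.63% and 4.31% of all genes. MX2 was also higher without LPS in shNR4A3 cells (0.45, 1 of 5, beside 3.91% of all genes, and 2 by DESeq2). No relative was called lower against shNT in this fit. With the replicate block ATL2 was lower in shNR4A2 cells without LPS (adjusted p = 0.0191), beside 1 higher of 6 relatives and 23.6% of all genes called, and ATL1 was lower in shNR4A3 cells with LPS (adjusted p = 0.0467), beside 3 higher of 5 and 21.8% of all genes.

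Monocytic markers moved with the lines in the same samples. The 10 markers summed to means of 2215 TPM in shNT control, 3230 TPM in shNR4A2 control and 3346 TPM in shNR4A3 control cells. With LPS the sums were 2145, 3126 and 3206 TPM. LYZ, the lysozyme gene, had a log2 fold change of 1.68 in shNR4A2 and 2.25 in shNR4A3 cells without LPS, and 4 and 5 of the 10 markers were called higher with none lower, beside 3.63% and 3.91% of all genes called higher. With LPS 3 and 4 of the 10 were called higher with none lower, beside 4.31% and 3.99%. With the replicate block 7 were higher in each line without LPS, beside 23.6% and 14.8% of all genes. With LPS 6 were higher in shNR4A2 cells, beside 28.1%, and 7 in shNR4A3 cells, where 1 was lower, beside 21.8%. The most abundant marker was FCER1G in shNT and shNR4A2 control cells, LYZ in shNR4A3 control cells and SPI1 in the LPS groups. Of the markers of other cell types, PECAM1 was called higher by edgeR in shNR4A2 than in shNT cells in both conditions. Its means were 268.6 against 173.6 TPM without and 211.0 against 135.4 TPM with LPS. In shNR4A3 cells, where edgeR did not call it, the PECAM1 means were 205.4 TPM without and 167.0 TPM with LPS. With the replicate block 1 of 2 endothelial markers tested was higher there in each condition, beside 14.8% and 21.8% of all genes. VWF with LPS averaged 0.223 TPM in shNR4A3 against 0.446 TPM in shNT cells. CD79A and VWF were called higher with LPS in shNT cells. The part of all these markers in the GBP differences was not tested. Less RNA of a gene per cell and fewer cells that express it cannot be told apart in these bulk libraries.

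Across the 18 libraries GBP2 was most like SDC4 (Pearson r = 0.994 of log2 CPM) and MSC (0.990), among 14784 genes with a mean of at least 1 TPM. GBP5 was most like CD40 (0.987), TRAF3 (0.986) and TEX41 (0.984), and GBP3 like MINDY3 (0.991), PLEKHF2 (0.988) and NFE2L3 (0.988). GBP1 was most like PTTG1IP (0.982), HS3ST3B1 (0.979) and GBP2 (0.977). GBP4 had the lowest likenesses of the 5, to ZNFX1 (0.919), AC004847.1 (0.890) and DEPP1 (0.890). The 18 points fall into control and LPS groups, so these values describe the shared shape over the groups and carry no test. Among the members themselves, r ran from 0.658 for GBP4 with GBP5 to 0.977 for GBP1 with GBP2.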

How the data were processed

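The authors deposited 1 table per library, 18 in all, of unnormalized counts (whole reads on each Ensembl gene) and merged exon length. The submitters' processing notes name Trimmomatic 0.36, STAR 2.5.2b, featureCounts of Subread 1.5.2 and GRCh38; strand and multi-mapping settings are not given in the sources used here. Symbols came from GENCODE 29. Libraries held 16171161 to 23929138 counts, which limits genes of a few counts per library.

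TPM was computed from counts and length. Pairwise fits used the 6 libraries of both groups, and interactions used 12, with edgeR 4.0.16 in R 4.3.3 (filterByExpr, TMM, quasi-likelihood F test), with Benjamini-Hochberg adjustment over all genes tested and a limit of 0.05. The procedure was tested on simulated data. Alternatives were DESeq2 1.42.0, RLE size factors, no filter, a replicate block and each library left out. Replicate numbers in the titles paired the libraries (every residual correlation over 0.1) in all comparisons but LPS in shNT cells and both interactions.

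Members, lists and tests were chosen with earlier results of these data known. Named were all members, NR4A2 and NR4A3, every neighbour of the cluster, IRF1, IFNG, IFNB1 and cell-type markers. Beyond these, at most 4 called genes per list and comparison were named, by size of log2 fold change. For likeness, the 3 genes of highest r were named. A few genes these rules or lists would include are not reported here. No 2 libraries held identical counts.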

Additional observations from a re-analysis of the deposited data

How the results depend on the processing

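Of the 52 log2 fold changes of tested members, all kept their direction and side of the threshold with DESeq2 and with RLE size factors. Without the low-count filter 49 of 52 did, GBP4 losing its call with LPS in shNR4A2 cells and between shNR4A2 and shNT with LPS, and GBP3 turning from 0.0063 to -0.0044 between the knockdown lines without LPS.

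Over all comparisons, also those whose numbers do not pair the libraries, the replicate block left the direction and side of the threshold of 48 of the 52 as they were. Under it the members called between the knockdown lines with LPS went from 0 to 2 (23.6% of all genes were called), and GBP5 passed as lower in shNR4A3 than in shNT cells with LPS. GBP4 passed with LPS in shNT cells (0.40, adjusted p = 0.0378 by edgeR), where the numbers did not pair the libraries (lowest correlation 0.0598). Genes called of all tested went from 1019 to 3733 (shNR4A2 against shNT without LPS), 1085 to 4385 (with LPS), 1108 to 2267 (shNR4A3 without), 1005 to 3401 (with), 480 to 1800 (between knockdown lines without), 362 to 3666 (with) and 3050 to 4751 (LPS in shNR4A2).

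Without the filter these counts were 1611 and 1843 for shNR4A2 without and with LPS, 1839 for shNR4A3 with LPS, and 838 and 1102 between the knockdown lines. DESeq2 gave 698 for the last. Against shNT it called 1287 of 16017 genes without and 1382 of 16862 with LPS in shNR4A2 cells. In shNR4A3 cells it called 1145 of 15103 and 1290 of 15289, and with LPS in shNT cells 3541 of 18930. The interactions went from 0 and 0 to 29 and 138 without the filter, and to 8 and 22 with the block. The cause was not tested.

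With each library left out, the members called ranged from 4 to 5 (LPS in shNR4A2), 1 to 2 (shNR4A2 with LPS), 1 to 2 (shNR4A3 without LPS), 1 to 4 (shNR4A3 with LPS) and 0 to 1 (between knockdown lines without LPS), with fewer samples in each fit. Signs turned for values near 0. Between the knockdown lines with LPS, GBP1 ran from -0.23 to 0.26, GBP4 from -0.073 to 0.12 and GBP5 from -0.21 to 0.15, and without LPS GBP3 ran from -0.12 to 0.11. GBP4 in shNR4A3 without LPS ran from -0.017 to 0.31 and GBP5 in shNR4A2 without LPS from -0.19 to 0.012. In the shNR4A2 interaction GBP2 ran from -0.21 to 0.10, GBP3 from -0.13 to 0.19 and GBP5 from -0.31 to 0.044. Where 1 group is left with 2 libraries, the spread is shared across the fit. Depth limits GBP1 without LPS and GBP6 and GBP7 throughout.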
